A study of Mus musculus with 12 samples.

Results

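The lungs of 6 wildtype mice taken at postnatal day 0.5 were described here on their own, as the resting state of a newborn mouse lung on an expression array. They were all the lungs labelled wildtype among the 12 of the series. The other 6 came from Foxf1+/- littermates, and no comparison of genotypes was made. The mice of both genotypes had a mixed genetic background of inbred strains, so the 6 lungs shared no single inbred genome, and the wildtype animals carried the intact Foxf1 alleles of a colony in which the deleted allele had been made by crossing a floxed line with EIIa-Cre mice, a line whose recombinase acts in the early embryo. RNA was taken from frozen whole lung with no dissection or sorting. Each sample therefore mixed epithelium, vessels, stroma, blood and any tissue lifted out with the lung, and more cells of a type and more RNA per cell cannot be told apart. Each lung was hybridised to 1 array, and the lungs are called here by their replicate number, 1 to 6.

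At birth the lung changes from a fluid secreting organ to one that exchanges gas. Alveolar type 1 cells, which are flat, lie against the capillaries and form the gas exchange surface, while alveolar type 2 cells make surfactant, the mixture of lipid and protein that keeps the distal airspaces open. Airspace fluid is taken up across the epithelium through sodium channels and the sodium pump, under the influence of glucocorticoids. The vessels, the elastic fibres and the fibroblasts that lay them down are still being built, since most alveoli of the mouse form after birth.

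A level is given below as log2 signal after background correction and quantile normalisation over the 6 arrays. The probe with the highest mean stood for each of 19056 genes, and a value after ± is the SD between lungs within the 2 array experiments described below (n = 6 lungs, 4 degrees of freedom). This SD leaves out any difference between the experiments. A probe's brightness depends on its own sequence as well as on its transcript, so the order of genes is one of array signal and not of transcript amount. To mark where signal could be told from background, a floor was set with the olfactory receptor genes, a large family used by the nasal epithelium. The median of these 1078 genes was 5.93, and their 95th percentile, 6.26, was taken as the floor. Of all genes, 12198 (64.0%) had a mean level above it and 10807 (56.7%) were above the floor of each single lung. The median gene level was 6.94 and the highest 15.29, and 7108, 3225, 694 and 63 genes had mean levels over 8, 10, 12 and 14. A level under the floor did not show that a transcript was absent. Genes that every cell uses lay there too, among them Sdha, a subunit of succinate dehydrogenase, at 5.92 ± 0.07, and Rpsa, a ribosomal protein, at 6.21 ± 0.09. Pcna, the sliding clamp of DNA replication in dividing cells, was also under the floor, at 6.13 ± 0.11. Among 7234 genes with several probes and the brightest above the floor, the brightest and the dimmest probe differed by a median of 1.77, and in 55.3% of these genes the dimmest lay under the floor.

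**Figure D1:**
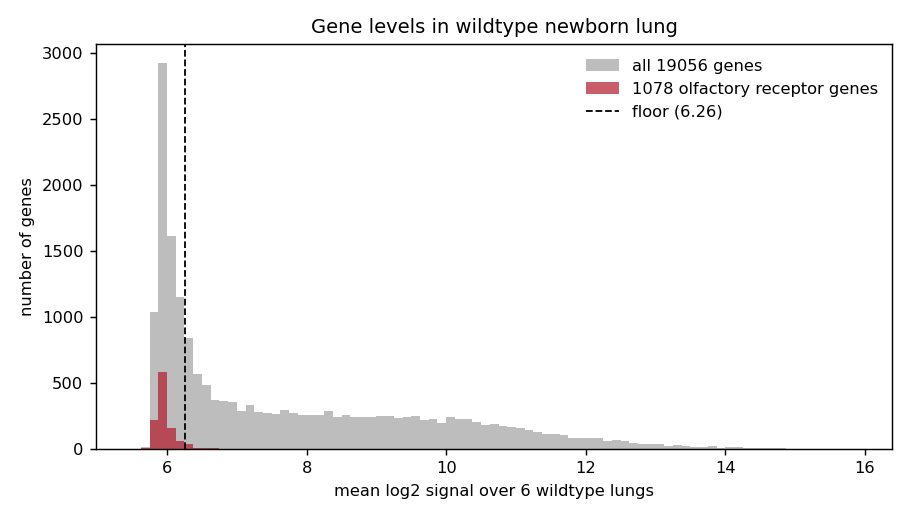
Number of genes by mean log2 signal over the 6 wildtype lungs, with the 1078 olfactory receptor genes in red and the floor at 6.26 as a dashed line. Most genes of the large peak on the left share the range of the olfactory receptor genes, and 12198 genes lie to the right of the floor.

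Some lungs stood apart, and this bears on what follows. The study's methods state 2 array experiments, but no label says which array belonged to which. The arrays were therefore divided by their raw signal. Lungs 1 and 2 had raw medians of 79.7 and 72.9 (called experiment A), and lungs 3 to 6 had raw medians between 59.2 and 61.7 (called experiment B). Across genes, the levels of lungs 1 and 2 had a Pearson r of 0.990, the 6 pairs within experiment B lay between 0.960 and 0.995, and the 8 pairs across experiments lay between 0.949 and 0.972. Lung 5 was at least 1 log2 unit above each of the other lungs for 201 genes, led by genes of stomach, cornified epithelium and T cells. Lung 6 was at least 1 log2 unit under each of the others for 33 genes, led by genes of striated muscle and squamous epithelium. The corresponding counts for lungs 1 to 4 were between 0 and 9. The spread between lungs and the medians of the lists that these lungs moved most are given below also without them.

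The brightest signals came from red blood cell globins and from the translation machinery. Hba-a1, an adult alpha globin, had levels of 15.26, 15.17, 15.33, 15.33, 15.33 and 15.33 in lungs 1 to 6, and Hbb-bs, an adult beta globin, 15.20, 15.33, 15.26, 15.26, 15.26 and 15.26. Both lay at or near the top of every array, with Rps2 above them in lung 1 and Rplp1 above Hba-a1 in lung 2. There quantile normalisation gives the same value to the same rank, so that the equal values and the small SDs of the topmost genes follow in part from the method. Hbb-bt, the neighbouring beta globin gene, was at 14.64, 14.58, 15.14, 15.20, 15.17 and 15.14, with both lungs of experiment A below all 4 of experiment B. Globin genes are near-identical copies, and their probes may share transcripts. Of the 30 brightest genes 13 encode ribosomal proteins, as do 25 of the 100 brightest, and the 71 ribosomal protein genes on the array had a median level of 13.16, with 61 above the floor. Rplp1, a protein of the ribosomal stalk, was at 14.99 ± 0.09, Rps2 at 14.81 ± 0.19 and Rps9 at 14.76 ± 0.06, and the elongation factor Eef1a1 was at 14.75 ± 0.10. Fth1, the ferritin heavy chain that stores iron, was at 14.63 ± 0.05 and Gpx1, an antioxidant selenoenzyme, at 14.51 ± 0.11.

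Lung-typical genes were found among the same 30. Lyz1, a lysozyme, had levels of 14.66, 14.62, 14.76, 14.76, 14.53 and 14.66 in lungs 1 to 6. Sftpd, the collectin surfactant protein D, which binds microbes in the airspace, had levels of 14.31, 14.33, 14.49, 14.61, 14.45 and 14.48. Inmt, an indolethylamine methyltransferase abundant in lung, was at 14.08, 14.15, 14.59, 14.58, 14.61 and 14.53, with both lungs of experiment A below the 4 of experiment B. All 3 genes varied by less than 1 log2 unit between lungs. The lowest mean level among the 30 was 14.34, of the RNA-binding protein Ybx1, and the largest SD among them was 0.19, of Rps2, which stood at 15.33 in lung 1 and between 14.66 and 14.80 in the other 5. Fhl1, a LIM domain protein of muscle and mesenchyme (14.40 ± 0.16), Itm2b, a membrane protein (14.55 ± 0.06), Tuba1b, an alpha tubulin (14.54 ± 0.07), Atp5b, the beta subunit of the mitochondrial ATP synthase (14.52 ± 0.11), and Txnip, a thioredoxin-binding protein (14.34 ± 0.06), also belonged to them.

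The proximal promoters of the 2 brightest globin genes and of 2 surfactant genes are shown because these genes stand for the blood and the epithelium of the sample. The sequences are from RefSeq (GRCm38.p6), run from 250 bases before to 50 bases after a transcription start and are written 5′ to 3′ on the gene's strand, Hba-a1 at chr11:32283422-32283721 (plus strand), Hbb-bs at chr7:103827879-103828178 (minus strand), Sftpb at chr6:72304360-72304659 (plus strand) and Sftpa1 at chr14:41131538-41131837 (plus strand). Capitals mark every match, on either strand, to 4 motifs: the TATA box TATAAA, the CCAAT box, the forkhead core TGTTTAC and the core CTCAAG of NKX2-1 sites. No match overlapped another.
Hba-a1: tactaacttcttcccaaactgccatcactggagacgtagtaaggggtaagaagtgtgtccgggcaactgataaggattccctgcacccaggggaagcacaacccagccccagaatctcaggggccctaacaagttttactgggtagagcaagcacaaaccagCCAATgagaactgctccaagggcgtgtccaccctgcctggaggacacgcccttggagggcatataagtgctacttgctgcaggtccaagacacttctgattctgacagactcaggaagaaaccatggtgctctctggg
Hbb-bs: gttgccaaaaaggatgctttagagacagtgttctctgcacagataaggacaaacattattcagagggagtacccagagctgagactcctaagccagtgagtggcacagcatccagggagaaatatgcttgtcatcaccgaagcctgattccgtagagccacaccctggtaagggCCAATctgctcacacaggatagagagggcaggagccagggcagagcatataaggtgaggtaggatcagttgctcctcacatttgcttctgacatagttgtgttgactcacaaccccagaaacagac
Sftpb: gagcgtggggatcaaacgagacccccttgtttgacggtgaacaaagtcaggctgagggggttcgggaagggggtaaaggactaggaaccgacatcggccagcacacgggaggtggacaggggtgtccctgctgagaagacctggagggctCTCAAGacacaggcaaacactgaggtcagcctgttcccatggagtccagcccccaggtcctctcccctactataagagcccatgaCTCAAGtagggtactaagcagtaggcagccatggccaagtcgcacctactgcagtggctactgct
Sftpa1: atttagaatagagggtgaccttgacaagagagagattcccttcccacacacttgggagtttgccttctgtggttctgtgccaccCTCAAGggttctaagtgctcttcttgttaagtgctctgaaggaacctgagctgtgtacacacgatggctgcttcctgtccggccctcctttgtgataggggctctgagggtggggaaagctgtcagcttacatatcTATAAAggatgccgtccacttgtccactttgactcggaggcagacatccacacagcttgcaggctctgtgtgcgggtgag

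Both globin windows held a CCAAT box and no match to the other motifs, at position -88 in Hba-a1 and -76 in Hbb-bs, counted from the start. Both surfactant windows held the NKX2-1 core, at -100 and -15 in Sftpb and at -166 in Sftpa1, and Sftpa1 held a TATA box at -30. Of the 15237 genes on the array with a window of this length, 6408 (42.1%) held the CCAAT box, 2554 (16.8%) the NKX2-1 core, 2131 the TATA box and 532 (3.49%) the forkhead core. Among the 26 of the 30 brightest genes with a window, 14 held the CCAAT box, 6 the TATA box, 3 the NKX2-1 core and 2 the forkhead core. Among the 9 of 12 alveolar type 2 genes with a window, 3 held the NKX2-1 core, 3 the TATA box, 3 the forkhead core and 2 the CCAAT box. A match describes letters and is no evidence of a bound factor.

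Alveolar type 2 cells were well represented. Of 12 genes of this list, 11 were above the floor in the mean of the 6 lungs, with a median level of 12.32, against 6.94 over all genes. Sftpd is described above. Sftpc, surfactant protein C, a hydrophobic peptide made by type 2 cells alone, had levels of 13.64, 13.43, 13.90, 13.90, 14.02 and 13.96 in lungs 1 to 6. Both lungs of experiment A were below the 4 of experiment B. Sftpb, surfactant protein B, was at 13.59, 13.57, 12.96, 13.04, 13.17 and 13.18, with both lungs of experiment A above the others. Napsa, an aspartic protease that processes surfactant protein B, was at 13.51, 13.34, 13.61, 13.72, 13.61 and 14.19. Lung 6 was its highest lung, and the remaining 5 spanned 13.34 to 13.72. Abca3, the transporter that loads lipid into lamellar bodies, was at 13.39 ± 0.18 and Sftpa1, surfactant protein A, at 11.56 ± 0.22. S100g, a calcium-binding protein found in type 2 cells, was under the floor at 6.00 ± 0.10. The medians of the list by lung ran from 12.13 in lung 5 to 12.53 in lung 1.

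Alveolar type 1 genes gave signals of a like order, with all 12 above the floor and a median of 12.66. Emp2, a tetraspan membrane protein, had levels of 13.25, 13.23, 13.48, 13.35, 13.40 and 13.53 in lungs 1 to 6. Hopx, a homeodomain protein without DNA binding, had levels of 13.44, 13.41, 13.34, 13.25, 13.24 and 13.49. Ager, the receptor for advanced glycation end-products, had levels of 13.18, 13.15, 13.17, 13.18, 13.48 and 13.71. The range of each of these 3 genes over the lungs stayed under 1 log2 unit. Cldn18, a tight junction protein of the alveolar barrier, was at 12.81 ± 0.35. The list's median was highest in lung 6, at 12.69, and lowest in lung 5, at 12.30.

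Conducting airway genes were mixed. All 8 club cell genes were above the floor, with a median of 9.28. Scgb1a1, the secretoglobin that names the club cell, was at 14.63, 14.47, 14.19, 14.15, 14.16 and 14.21 in lungs 1 to 6, and Cbr2, a carbonyl reductase, was at 14.01 ± 0.15. Cyp2f2, a cytochrome P450 of club cells, was at 13.43 ± 0.17 and Scgb3a1 at 9.76 ± 0.17. The list's median in lung 5, 11.62, lay far above the 8.78 to 9.46 of the other lungs, which followed from Bpifb1, an antibacterial protein of upper airway glands, at 7.36, 6.94, 8.02, 8.11, 13.50 and 8.88. Without lungs 5 and 6 the list's median was 8.93, with 7 of the 8 genes above the floor. Of 12 ciliated cell genes 10 were above the floor, with a median of 7.72. Dynlrb2, a dynein light chain, was at 11.06 ± 0.24, Rsph1, a radial spoke protein, at 10.60 ± 0.28 and Tppp3 at 10.53 ± 0.41. Hydin and Tmem212, also of ciliated cells, were under the floor at 6.26 ± 0.06 and 5.78 ± 0.04. Basal cell genes had a median of 7.60 and differed between lungs: Krt14, a keratin of stratified epithelium, was at 9.29, 9.32, 10.13, 9.89, 11.06 and 7.58, highest in lung 5 and lowest in lung 6, and the list's median was 7.61 without both. Neuroendocrine genes had a median of 6.62, and Chga and Pcsk1 were under the floor.

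**Figure D2:**
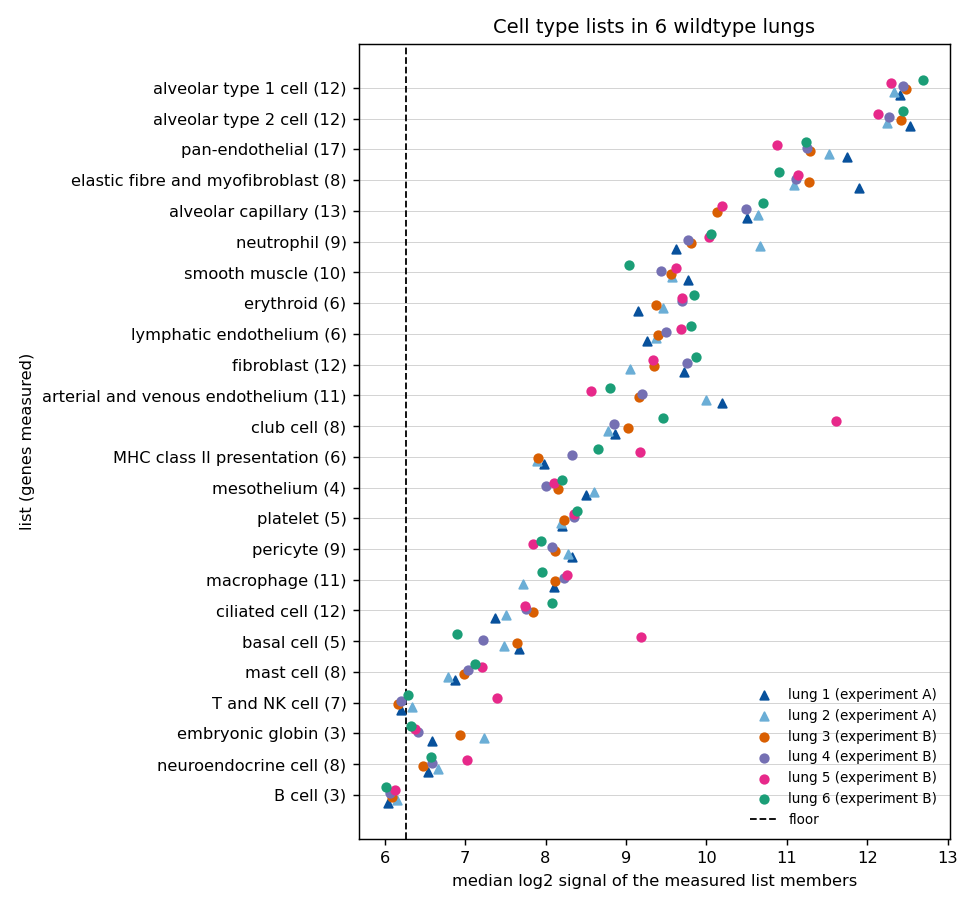
Median log2 signal of the measured members of 24 cell type lists in each of the 6 wildtype lungs (triangles experiment A, circles experiment B), with the number of genes measured in brackets and the floor as a dashed line. The alveolar lists lie at the top in every lung and the B cell list at the floor, and lung 5 lies to the right for the club, basal and T and NK cell lists.

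Endothelium gave high signals in most of its genes. Of 17 pan-endothelial genes 16 were above the floor in the mean and 14 in every lung, with a median of 11.43. Egfl7, a secreted protein of vessel walls, was at 13.96, 14.12, 14.04, 14.02, 13.97 and 14.32 in lungs 1 to 6, and Cldn5, the claudin of endothelial tight junctions, at 12.96, 12.93, 13.20, 13.21, 13.10 and 13.44. Neither gene spread by more than 1 log2 unit. Esam, an adhesion molecule, was at 13.03 ± 0.13 and Ramp2, a co-receptor for adrenomedullin, at 12.70 ± 0.16. Ramp2 was at 12.11 and 12.35 in lungs 1 and 2 and between 12.72 and 13.05 in lungs 3 to 6. Erg, a transcription factor that every endothelial cell uses, was under the floor at 6.11 ± 0.18 on its probe. Kdr (6.42 ± 0.08) and Calcrl (6.35 ± 0.15) lay just above the floor. The list's median was 11.75 and 11.52 in the lungs of experiment A and between 10.88 and 11.29 in those of experiment B. Gene by gene the direction was mixed: the median difference of its 16 tested genes, experiment A minus B, was -0.12. In the comparison of experiments described below, 4 were called higher and 3 lower in experiment A, where 27.1% of all genes tested were called. Of 13 alveolar capillary genes 11 were above the floor, with a median of 10.49. Cd93 was at 12.93 ± 0.11, Tmem100, a target of BMP9 signalling in endothelium, at 12.80 ± 0.20, Ednrb, an endothelin receptor of the aerocyte, at 12.53 ± 0.12, and Plvap, of the diaphragms of fenestrae and caveolae, at 11.70, 11.52, 11.69, 11.59, 11.65 and 12.17, highest in lung 6. Apln and Fibin were under the floor. Arterial and venous genes had a median of 9.32, led by Ephb4 (11.75 ± 0.11), Hey1 (11.68 ± 0.31) and Vwf, von Willebrand factor (10.96 ± 0.20). Ephb4 was at 11.17 and 11.42 in lungs 1 and 2 and between 11.88 and 12.03 in lungs 3 to 6. Gja5, the connexin 40 of arteries, was at 11.83, 10.58, 10.91, 10.66, 10.90 and 10.77, highest in lung 1. All 6 lymphatic genes were above the floor, with Ccl21a, a chemokine that guides leukocytes to lymph vessels, at 11.60 ± 0.36 and Lyve1, a hyaluronan receptor, at 11.03 ± 0.16.

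The mesenchyme was likewise measured in most of its markers. All 12 fibroblast genes were above the floor (median 9.50), with Tcf21, a transcription factor of lung mesenchyme, at 13.16 ± 0.09 and Pdgfra at 10.78 ± 0.26. Col1a1 (mean 12.20 ± 0.19) was at 13.19 and 12.97 in lungs 1 and 2 and between 11.58 and 12.03 in lungs 3 to 6. Dcn, the proteoglycan decorin, had levels of 12.41, 12.20, 12.44, 12.02, 12.64 and 10.92 in lungs 1 to 6. Lung 6 was lowest, by 1.11 log2 units to the next lung. Eln, the elastin of alveolar and arterial walls, was at 13.99, 14.16, 13.73, 13.52, 13.56 and 13.75. Its lungs spanned less than 1 log2 unit. Tgfbi (12.91 ± 0.20) and the crosslinking enzymes Loxl1 (12.58 ± 0.35) and Lox (12.55 ± 0.40) were the next of the elastic fibre list, of which Fbln5 and Aspn were under the floor. Acta2, smooth muscle actin, was at 14.16 ± 0.31, Mylk, myosin light chain kinase, at 13.37 ± 0.08 and Actg2, the actin of visceral muscle, at 11.80, 11.43, 11.87, 11.82, 12.80 and 11.60, highest in lung 5. Cnn1 and Synpo2 were under the floor. Pericyte genes had a median of 8.12, with Higd1b at 10.60 ± 0.26 and Postn under the floor. Msln (10.36 ± 0.16) and Upk3b (10.90 ± 0.22) of the mesothelium, which covers the lung, were above the floor, and Lrrn4 and Gpm6a were not.

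Transcription factors of lung development gave a median of 10.26, with 17 of 19 above the floor. The median by lung stayed between 9.95 and 10.12. Tbx4, a T-box factor of lung mesenchyme, was at 12.41 ± 0.12, Hoxa5 at 12.08 ± 0.16, and Gata6, of epithelium and smooth muscle, at 11.59 ± 0.16. Foxf1, the forkhead factor of lung mesenchyme and endothelium whose loss the study was made to examine, had levels of 11.75, 11.88, 11.04, 11.38, 10.92 and 11.49 in the 6 wildtype lungs (mean 11.41 ± 0.24). Lung 2 was highest and lung 5 lowest, within 1 log2 unit, and both lungs of experiment A were above the 4 of experiment B. Foxf2 (6.07 ± 0.08) and Gli1 (5.99 ± 0.09), a target of hedgehog signalling, were under the floor. The 9 genes of the fluid clearance list were all above it, with a median of 12.03. The list also holds a chloride importer, so its median does not stand for clearance alone. Of the sodium channel subunits, Scnn1a was at 12.82 and 12.99 in lungs 1 and 2 and between 11.32 and 11.56 in lungs 3 to 6. Scnn1b was at 11.68 ± 0.20 and Scnn1g at 12.03 ± 0.18. Aqp1, the water channel of capillaries, was at 13.94 ± 0.13, Atp1b1, a subunit of the sodium pump, at 13.88 ± 0.18, Slc12a2, a chloride importing cotransporter, at 12.97 ± 0.09, and Sgk1, a kinase that keeps sodium channels at the membrane, at 13.46 ± 0.35.

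Blood and immune cells were unequal. Besides the bright globins, Alas2, the first enzyme of haem synthesis in red cells, was at 13.12 ± 0.27 and Slc4a1, the band 3 anion exchanger, at 12.23 ± 0.28. Of 6 erythroid genes measured 5 were above the floor (median 9.53). Hbb-b2, a further beta globin gene, and Rhag were low, at 6.83 ± 0.17 and 6.64 ± 0.17, and Epb42 was under the floor at 5.92 ± 0.06. The embryonic globins Hbb-y and Hba-x were at 7.07 ± 0.54 and 6.65 ± 0.33, close to the floor, and Hbb-bh1 was under it. All 9 neutrophil genes were above the floor (median 10.05), with S100a8 at 12.56 ± 0.39, the iron-binding Lcn2 at 11.81 ± 0.13 and Ltf, lactoferrin, at 11.19 ± 0.40. Lcn2 is also made by epithelium. Of 11 macrophage genes 10 were above the floor (median 7.99). Lyz2 led them at 13.75 ± 0.27, though type 2 cells also make it, and Mertk, a receptor for dying cells, was at 10.19 ± 0.28. Itgax, the CD11c of mature alveolar macrophages, was under the floor at 6.02 ± 0.06. Mast cell genes had a median of 6.99 and platelet genes of 8.24. B cell genes were at the floor except Cd79b (8.45 ± 0.24).

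Of the growth and stress programmes, the imprinted growth genes gave the brightest members. Igf2, a fetal growth factor, was at 14.17, 13.71, 14.50, 14.27, 14.20 and 13.94 in lungs 1 to 6. Dlk1, a non-canonical Notch ligand of fetal tissue, was at 14.38, 14.38, 14.16, 14.24, 13.77 and 13.43. Cdkn1c, a brake on the cell cycle, was at 13.75 ± 0.16 and Grb10, an adaptor that restrains insulin signalling, at 12.66 ± 0.08. Each of these 4 genes had an SD under 0.5. Of 14 cell cycle genes 11 were above the floor (median 8.55). Prc1, of the mitotic spindle, was highest among them at 10.12 ± 0.39, and the list's median was lowest in lung 6, at 8.06, against 8.40 to 8.66 in the others. Immediate early genes were led by Dusp1, a phosphatase of MAP kinases (13.11 ± 0.08), and Ier3 (12.52 ± 0.24), with Nr4a1 under the floor. In the hypoxia and glycolysis list, Ldha was at 12.35 ± 0.19 and Vegfa, the main endothelial growth factor, at 11.56 ± 0.25. Hp, haptoglobin, was the highest acute phase gene at 13.14 ± 0.11, while Il6 was under the floor. Of 8 interferon response genes 5 were above the floor (median 8.32), against 64.0% of all genes. Rsad2, an interferon-induced antiviral enzyme, led them at 11.91 ± 0.27, followed by Usp18 (9.93 ± 0.16), Isg15 (9.76 ± 0.18) and Ifit3 (9.35 ± 0.21). Ifit1, Oas1a and Mx1 were under the floor.

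Genes of other organs were above the floor in part. Heart genes were 9 of 9 above it in the mean, with a median of 10.16, and skeletal muscle genes 9 of 9, with 9.63, though only 6 of the skeletal muscle genes were above it in every lung. Myl4, an atrial and embryonic myosin light chain, had levels of 14.20, 13.11, 14.38, 14.12, 14.33 and 13.07 in lungs 1 to 6. Lungs 2 and 6 were at least 1 log2 unit below the rest. Of 7 squamous epithelium genes 6 were above the floor. None of 5 genes of testis and eye was above it. Of the other lists, 5 of 8 liver genes were above the floor, among them the apolipoprotein Apoa1 (7.98 ± 1.45) and Ahsg (7.76 ± 0.21), while Alb and Fgb were under it. Apoa1 was at 10.71 in lung 5 and between 6.99 and 7.86 in the others. Of 5 pancreas genes 3 were above the floor, led by Cela1 (7.79 ± 0.36) and Cpa1 (7.25 ± 0.33), with Cela2a and Ins2 under it. Of 5 adipose genes 3 were above the floor, with Cidea at 7.33 ± 0.65 and Adipoq at 6.98 ± 0.69 and with Plin1 and Retn below. Of 6 genes of neurons and glia 2 were above it, Sox10 at 7.22 ± 0.54 and Prph at 6.90 ± 0.36. Of all genes 64.0% were above the floor, and the shares of the liver, pancreas, adipose and neuron and glia lists were no higher. The highest olfactory receptor gene, at 7.15, lay above Adipoq and Prph. Without lungs 5 and 6 the median was 10.34 for heart, 10.32 for skeletal muscle and 7.73 for squamous epithelium, with 9, 9 and 6 members above the floor, and 2 of the 5 adipose genes were above it.

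The spread between lungs was small for most genes. Over the 12198 genes above the floor the SD within array experiments had a median of 0.15, with 5th and 95th percentiles of 0.06 and 0.39. It exceeded 0.5 in 381 genes (3.12%) and 1 in 114 (0.935%). By level, the median SD was 0.14 for genes from the floor to 8, 0.16 from 8 to 10, 0.15 from 10 to 12, 0.14 from 12 to 14 and 0.10 above 14. Without lungs 5 and 6 the median was 0.11, and with the experiments not taken out it was 0.22 over the 6 lungs. A single array per lung gave no measure of technical error, so animal, dissection and array cannot be told apart in these SDs. The 20 genes with the largest SDs owed them mostly to lungs 5 and 6: lung 5 was highest in 17 of them and lung 6 lowest in 8. Of the 100 most variable genes, 88 were highest in lung 5 and 42 lowest in lung 6. Among the 12198 genes above the floor, 2117 were highest in lung 5 and 2195 lowest in lung 6. The counts among the most variable genes follow in part from the choice, since a gene with a single distant lung has a large SD. Some of them passed the floor in the mean only through lung 5, such as Kprp, at 10.65 there and at most 5.89 in the others. With lungs 5 and 6 left out, 2 of the 20 remained among the 20 most variable, Nppa and Xist.

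**Figure D3:**
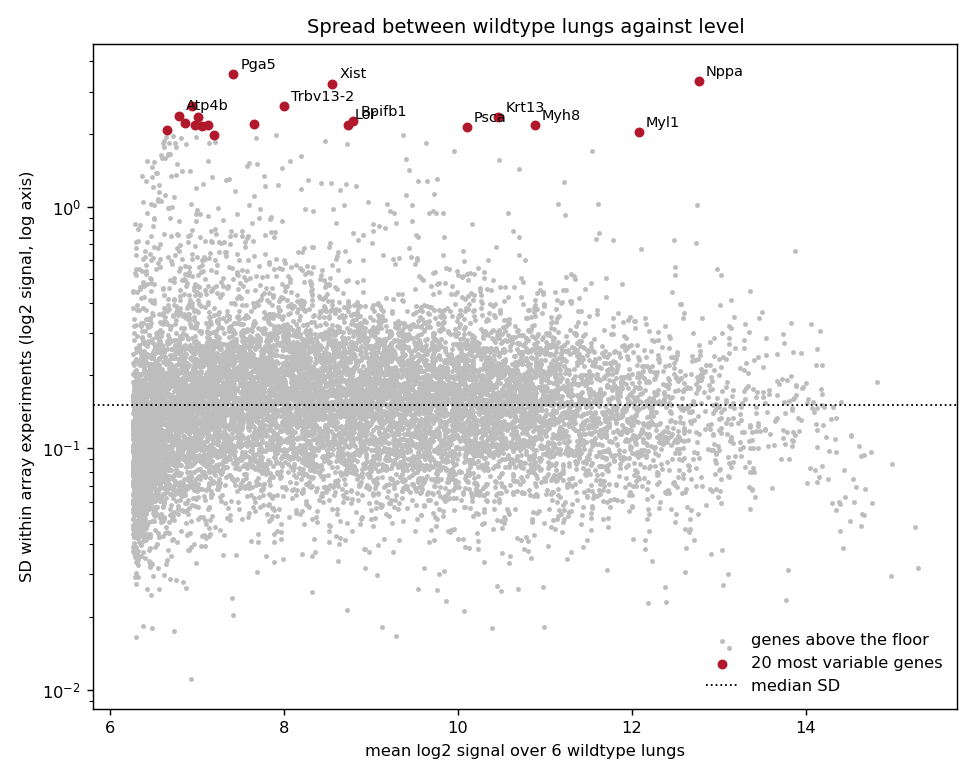
SD between wildtype lungs within array experiments (log2 signal, log axis) against mean log2 signal for the 12198 genes above the floor, with the 20 most variable genes in red and the median SD of 0.15 dotted. The cloud keeps its height over most of the range, and the red genes stand apart from it at SDs from 1.99 to 3.54.

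Lung 5 carried stomach genes that lay near the floor in the other lungs. Pga5, a pepsinogen, was at 5.95, 6.07, 5.94, 5.90, 14.24 and 6.39 in lungs 1 to 6. Gkn2 was at 6.04, 5.95, 5.95, 5.86, 11.92 and 5.92 and Gkn1 at 6.00, 6.08, 6.04, 6.21, 11.57 and 6.20, both secreted by the gastric lining, and Atp4b, a subunit of the acid pump of parietal cells, was at 5.92, 5.89, 5.77, 5.91, 11.36 and 5.91. For all 4 genes lung 5 alone rose clear of the floor, and the other lungs did not exceed 6.39. A wider set of 14 gastric genes was drawn up after these values were seen. It included the 4 genes just named. Of its 13 measured members 12 were highest in lung 5 and 10 were at least 1 log2 unit above every other lung, with a median of 10.56 in lung 5 and at most 6.39 in the others. Of all genes 17.9% were highest in lung 5, and 1.05% were higher there by that margin. The same lung carried genes of cornified epithelium. Lor, loricrin, which makes up much of the cornified envelope, was at 7.34, 7.82, 8.02, 8.05, 13.09 and 8.10. Rptn (6.27, 6.26, 6.41, 6.33, 11.33 and 6.19), Krtdap (7.57, 6.82, 6.93, 6.80, 11.63 and 6.19), Kprp (5.88, 5.82, 5.89, 5.88, 10.65 and 5.84), Lce3f (5.92, 6.19, 6.10, 5.97, 11.11 and 5.90) and Lce1c (6.40, 6.35, 6.43, 6.52, 11.06 and 6.44), which serve the same envelope or the skin's outer layers, followed it, and 14 of the 18 Lce genes on the array were at least 1 log2 unit above every other lung there, against 4 of 14 Sprr genes, 6 of 49 keratin genes and 1.05% of all genes. The sets by symbol were not among the gene lists, and the Lce genes include Lce3f and Lce1c, which were chosen for their large SDs. The count of Lce genes follows in part from that choice. The gastric and the cornified genes were both highest in lung 5, and from which tissue either came was not tested.

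Several T cell genes were likewise highest in lung 5, with exceptions. Trbv13-2, a variable segment of the T cell receptor beta chain, was at 6.72, 6.85, 6.83, 7.21, 13.13 and 7.27 in lungs 1 to 6. Cd3d was at 6.21, 6.46, 6.32, 6.31, 10.68 and 6.85 and Cd3g at 6.38, 6.34, 6.17, 6.17, 10.67 and 6.22, both parts of the signalling complex of the T cell receptor. Lung 5 alone lay above 7 for the CD3 genes. Cd3e was at 6.21, 6.10, 6.08, 6.27, 9.69 and 6.28, whereas Cd4 (5.99, 5.89, 6.04, 6.06, 6.48 and 5.94) and Cd8a (5.94, 5.81, 5.86, 5.94, 5.86 and 5.78) stayed near or under the floor. Rag1, which recombines antigen receptor genes in developing lymphocytes, was at 5.97, 6.29, 6.27, 6.15, 8.23 and 6.17, and Dntt, Rag2 and Themis were under the floor in the mean. Cd8b1, the beta chain of CD8, was bright in every lung and not raised in lung 5, at 11.20, 11.03, 10.56, 10.26, 10.48 and 10.20. All 6 genes of MHC class II presentation were also highest in lung 5, as were 17.9% of all genes. Cd74, the invariant chain, was at 10.59, 10.32, 9.61, 9.92, 10.74 and 9.92 and H2-Ab1, a class II beta chain, at 8.82, 8.58, 8.31, 8.75, 10.41 and 9.30, where lungs 1 and 5 lay close together for the former and lung 5 stood 1.11 log2 units above the next lung for the latter. 2210407C18Rik and Gsta1 were further genes seen in lung 5, at 11.23 and 11.20.

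Lung 6 was low in striated muscle genes and in some squamous genes that the other 5 lungs carried. Krt13, a keratin of squamous epithelium such as that of the oesophagus, was at 11.49, 11.20, 11.20, 10.48, 12.31 and 6.11 in lungs 1 to 6. Psca, a surface antigen of several epithelia, was at 10.02, 9.93, 11.22, 10.82, 12.07 and 6.56. In both genes lung 6 fell to or near the floor. Of the 7 genes of the squamous epithelium list, which does not hold Psca, 3 were at least 1 log2 unit under every other lung there. Lor was not low in lung 6, at 8.10 against 7.34 to 8.05 in lungs 1 to 4. Myl1, a myosin light chain of fast muscle, was at 13.18, 12.18, 13.13, 12.77, 12.90 and 8.30 and Myh8, the perinatal myosin heavy chain, at 11.44, 10.55, 12.09, 11.94, 12.19 and 7.10. Lung 6 was the lowest for all 9 genes of the skeletal muscle list, and 6 of them were at least 1 log2 unit under every other lung. Of all genes 17.2% were lowest in lung 6, and 0.173% were lower there by that margin. The list's median was 6.79 in lung 6 and between 9.95 and 10.78 elsewhere. Acta1, skeletal actin, was at 10.38, 9.95, 11.55, 11.59, 11.44 and 7.94 and Mylpf, a further myosin light chain, at 10.38, 10.52, 10.76, 10.42, 10.89 and 6.79. The part of adjoining tissue in these levels was not tested.

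Heart genes divided the lungs in another way. Nppa, the atrial natriuretic peptide, had levels of 14.71, 10.91, 14.69, 14.24, 14.54 and 7.53 in lungs 1 to 6, the second largest SD of all (3.30). Lungs 1, 3, 4 and 5 were above 14, lung 2 was lower and lung 6 lower still. Myl7, the atrial regulatory light chain, was at 12.49, 11.34, 11.80, 11.65, 11.89 and 10.38 and Myh6, the alpha myosin heavy chain, at 12.29, 10.61, 11.95, 11.27, 11.14 and 9.64. Both were lowest in lung 6 and, in experiment A, lower in lung 2 than in lung 1. Lung 6 was the lowest lung for 6 of the 9 heart genes, against 17.2% of all genes. The others went another way: Myl3 (8.67) and Tnni3 (6.90) were lowest in lung 2, and Myh7 was highest in lung 6, at 7.38. Cardiomyocytes also sheathe the large pulmonary veins of the mouse, and heart and vein as sources of these transcripts cannot be told apart.

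**Figure D4:**
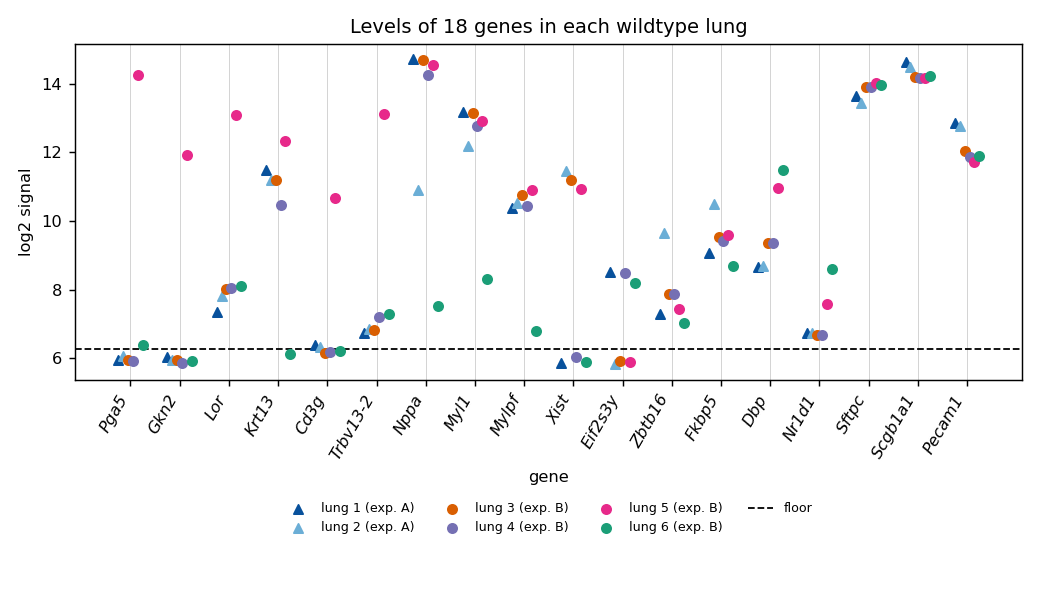
Log2 signal in each of the 6 wildtype lungs (triangles experiment A, circles experiment B) for 15 genes that differed between lungs and for Sftpc, Scgb1a1 and Pecam1, with the floor as a dashed line. Lung 5 is alone at the top for Pga5, Gkn2, Lor, Cd3g and Trbv13-2, lung 6 is at the bottom for Krt13, Nppa, Myl1 and Mylpf, and Xist and Eif2s3y run in opposite order.

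Sex-linked transcripts split the lungs 3 against 3. Xist, the RNA that silences an X chromosome in female cells, was at 5.85, 11.44, 11.20, 6.03, 10.92 and 5.88 in lungs 1 to 6. Eif2s3y, a Y-linked translation factor, was at 8.52, 5.82, 5.91, 8.50, 5.89 and 8.18. Lungs 2, 3 and 5 had high Xist and Eif2s3y under the floor, and lungs 1, 4 and 6 the reverse, with no overlap. Kdm5d, a Y-linked demethylase, was at 7.24, 5.91, 5.92, 7.09, 6.09 and 6.82 and Uty at 6.70, 6.23, 6.52, 6.65, 6.36 and 6.78, both higher in lungs 1, 4 and 6. The labels give no sex, and each array experiment held lungs of both patterns.

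Glucocorticoid response genes were highest in lung 2 and the clock gene Dbp in lungs 5 and 6. Fkbp5, a co-chaperone of the glucocorticoid receptor, was at 9.06, 10.48, 9.52, 9.42, 9.60 and 8.70 in lungs 1 to 6, and Zbtb16, a zinc finger repressor, at 7.28, 9.65, 7.87, 7.86, 7.45 and 7.02. Tsc22d3, also called GILZ, was at 11.57, 12.48, 12.14, 11.84, 12.02 and 11.80 and Klf9 at 11.95, 12.84, 12.48, 12.28, 12.33 and 12.39. Errfi1, an inhibitor of EGF receptor signalling, was at 12.97, 13.75, 13.46, 13.25, 13.46 and 13.20. Lung 2 was the highest lung for 6 of the 7 genes of the list, and Sgk1 was the exception at 12.97, 13.76, 13.40, 13.80, 13.25 and 13.54. Of all genes 17.6% were highest in lung 2. In the clock list, Dbp, an output factor of the circadian clock, was at 8.66, 8.69, 9.37, 9.36, 10.94 and 11.48, lowest in the lungs of experiment A and highest in lungs 5 and 6. Nr1d1, which represses Arntl, was at 6.72, 6.73, 6.67, 6.67, 7.59 and 8.59. Arntl, which peaks in antiphase to both, was at 7.80, 7.90, 7.70, 7.88, 7.18 and 7.39, lowest in lungs 5 and 6. Per1, a clock gene that glucocorticoids induce, was at 11.21, 12.22, 10.94, 10.65, 10.78 and 10.95, highest in lung 2. The labels give no hour of collection.

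The array experiments, as divided here, differed over many genes. The 2 groups were formed from the raw signal of these same arrays, so the p-values below do not test a split known beforehand. Among the 12198 genes above the floor, limma called 3309 (27.1%) different between lungs 1 and 2 and lungs 3 to 6 (Benjamini-Hochberg adjusted p under 0.05, both directions), 1453 higher and 1856 lower in experiment A. With each array scaled to the same median in place of quantile normalisation, which moved the median difference of the tested genes from -0.04 to 0.24, 5128 genes were called, 4412 higher and 716 lower, so the balance of directions rests on the scaling. The count rests on the small number of lungs in experiment A too: 1187 genes were called without lung 1 and 993 without lung 2, and 2194 without lung 3 and 2209 without lung 4. Cox4i2, an isoform of a cytochrome c oxidase subunit found in lung and pericytes, was at 11.26, 10.76, 8.06, 8.08, 7.80 and 8.13 in lungs 1 to 6. The difference was 2.99 ± 0.16 (SE, limma adjusted p = 0.00036). Tmem176a, a membrane protein, was at 12.72, 12.68, 10.53, 10.40, 10.72 and 10.56, and its difference was 2.15 ± 0.11 (SE, limma adjusted p = 0.00036). For both genes the lungs of experiment A lay above those of experiment B without overlap. The same held for 2900060B14Rik, for Asap2, a GTPase activator, and for Zmiz1, a transcriptional coactivator, with differences of 2.35 ± 0.31, 2.10 ± 0.12 and 2.09 ± 0.14. In the other direction, Ier5l was at 7.57, 7.54, 9.56, 9.91, 9.27 and 9.97, a difference of -2.12 ± 0.20 (SE, limma adjusted p = 0.00133). Fryl (-2.08 ± 0.16), ND5, a mitochondrially encoded subunit of complex I (-1.83 ± 0.24), Paip1, a partner of the poly(A)-binding protein (-1.79 ± 0.17), and Mrpl2, of the mitochondrial ribosome (-1.75 ± 0.13), were lower in experiment A without overlap. Litter, day of collection and array run cannot be told apart from the experiment. The p-values set the difference between the experiments against the spread of lungs within them. The labels call these lungs biological replicates and do not give their litters.

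**Figure D5:**
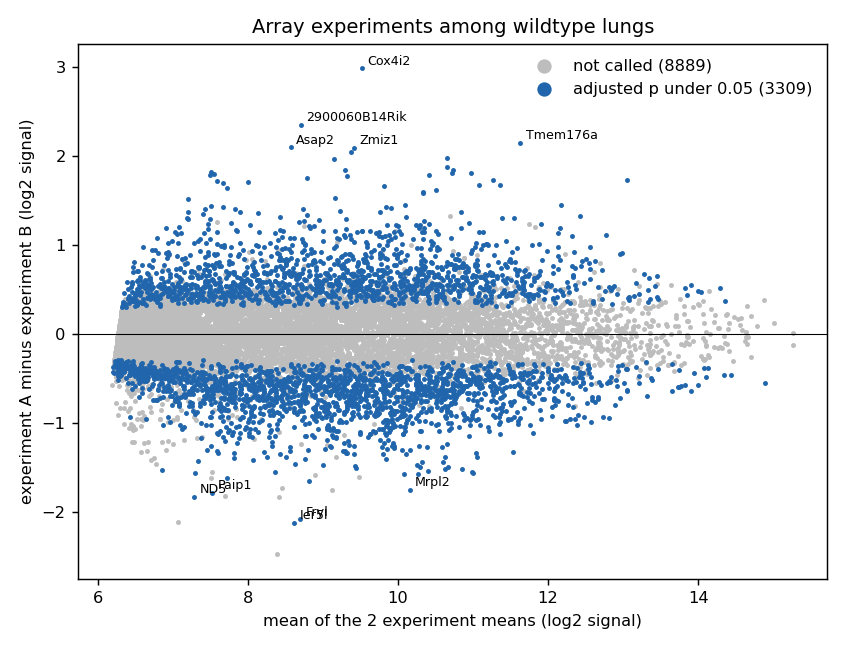
Difference in log2 signal between the 2 array experiments (lungs 1 and 2 minus lungs 3 to 6) against the mean of both experiment means for the 12198 genes above the floor, with the 3309 called genes in blue and the 5 largest differences in each direction named. Called genes lie on both sides of 0 over the whole range of levels.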

How the data were processed

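RNA of 6 wildtype whole lungs was measured on the Illumina MouseWG-6 v2.0 BeadChip, which carries no measure of depth, so that the number of arrays limits the precision. The authors deposited the raw intensity of each probe in each lung, before background correction or normalisation, without detection p-values. They also deposited processed log2 values, which by their methods had passed variance stabilisation, robust spline normalisation and ComBat. Those were used as an alternative only.

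Of 45281 probes, 18 with shifted cells and 6 with a raw signal under 20 on a wildtype array were left out. The raw intensities of the 6 wildtype arrays were background corrected (normexp, offset 50), taken to log2 and quantile normalised in limma 3.58.1 (R 4.3.3). Of the 45257 probes used, 34870 had 1 gene symbol in the platform annotation, 18 had several and 10369 none, and 34837 were matched to RefSeq (GRCm38.p6). By the methods the arrays were run in 2 experiments. The labels do not say which array was in which, so all 12 were divided by 2-means clustering on 3 quantiles of raw signal (5, 50 and 95%). Experiments were compared with lmFit and eBayes over genes above the floor. On simulated data for this comparison (12198 genes), 11 of 50 genes changed by 0.5, 37 of 50 changed by 1 and 46 of 50 changed by 2 log2 units were recovered, with 4 false calls among 11998 unchanged genes.

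The gene lists (47 lists, 454 genes, 410 measured) and the choice of the wildtype lungs were made with earlier results of these data known. Named were the 30 brightest genes, the 20 most variable, the 5 largest differences between experiments in each direction, Foxf1, the sex-linked genes and, of each list, up to 4 of the brightest members and members at or under the floor. Sftpa1, Sftpb, Pecam1, Fkbp5, Zbtb16, Dbp, Nr1d1, Arntl, Myl3, Tnni3, Myh7, Scnn1a, Scnn1b and Scnn1g, and the genes found in single lungs outside the lists, were named after their values were seen. Alternatives changed the background correction, offset, normalisation, arrays normalised together, probe rule, floor and lungs used.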

Additional observations from a re-analysis of the deposited data

Results flagged for a closer look

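Of 280 levels and list medians tested, 48 had a lung whose gap to the nearest of the others, divided by the range of the 6 lungs, was above Dixon's critical value of 0.625. Chance flags about 1 in 20, but the genes were not drawn by chance: the 20 most variable genes, chosen for their spread, held 17 of the 48, and some genes also count in a list median. Of the remaining 213 named genes 22 were flagged, and of the 47 list medians 9. Of the 48, lung 5 stood high in 33, lung 6 low in 6 and high in 3, and lungs 1 and 2 high in 3 each.

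In lung 5 the list medians of club cells (11.62), basal cells (9.19), neuroendocrine cells (7.02), T and NK cells (7.40), thymus (6.47), squamous epithelium (11.16) and adipose tissue (7.60) stood above the other lungs, whose nearest values were 9.46, 7.67, 6.66, 6.34, 6.18, 7.79 and 6.37. The single genes of lung 5 were Pga5 (14.24), Gkn2 (11.92), Gkn1 (11.57) and Atp4b (11.36) of stomach, Lor (13.09), Krtdap (11.63), Rptn (11.33), Lce3f (11.11), Lce1c (11.06) and Kprp (10.65) of cornified epithelium, and Trbv13-2 (13.13), Cd3d (10.68), Cd3g (10.67), Cd3e (9.69), Rag1 (8.23) and Il7r (7.40) of T cells. Further genes high in lung 5 were Bpifb1 (13.50), Slc12a2 (13.15), Actg2 (12.80), 2210407C18Rik (11.23), Gsta1 (11.20), Apoa1 (10.71), Cpa3 (8.69), Ttr (7.85), Ucp1 (7.60) and Scg5 (7.22). The gap for Slc12a2 was 13.15 against 12.99, far narrower than the gap for Pga5.

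In lung 6 the skeletal muscle list median (6.79, nearest other lung 9.95) was low, as were Myl1 (8.30), Myh8 (7.10), Mylpf (6.79), Krt13 (6.11) and Dcn (10.92). The clock list median (8.62, nearest 8.07), Plvap (12.17) and Itga2b (8.55) were high there. In lung 1, Rps2 (15.33), Rps9 (14.90) and Gja5 (11.83) were high, and in lung 2, Rplp1 (15.20), Tbx4 (12.74) and Per1 (12.22). Rplp1 had 1 value, 14.95, in the other 5 lungs because it kept the same rank on each array.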

How the results depend on the processing

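The counts of genes above the floor, 12198 in the mean and 10807 in every lung, stayed within 1.5 times under each alternative run, and with the floor at the 99th percentile 11078 genes were above it. The median SD between lungs, 0.15, moved to 0.18 with an offset of 16, to 0.12 with the authors' processed values, to 0.12 when probes of a gene were averaged and to 0.22 over all 6 lungs. Without lungs 5 and 6, an alternative chosen after seeing the data, it was 0.11, and leaving out each lung in turn it ran from 0.13 to 0.16. Of the 30 brightest genes, 18 were shared when the mean of all probes stood for a gene, and 29 to 30 with a lung left out. Of the 20 most variable genes, 2 were shared without lungs 5 and 6, and 6 to 20 with a single lung left out, the 6 without lung 5. The 3309 genes called between array experiments became 5128 under median scaling, and 993 to 3869 with a lung left out: 1187 without lung 1, 993 without lung 2, 2194 without lung 3 and 2209 without lung 4. At an unadjusted p under 0.05 the count was 4948. Of the 140 comparisons of the 10 named genes with an alternative, 139 kept their call, and Fryl lost it with the mean of its probes. The mean of all probes in place of the brightest moved the percentile of the median in 25 of 47 lists and the percentile of 127 of 233 named genes, so positions across genes rest on that rule. The other alternatives moved 4 list percentiles and 11 gene percentiles. No paired analysis was possible because only wildtype lungs were compared, and no 2 of them share a replicate number. With no detection p-values and 1 array per lung, signal near the floor and technical error could not be measured.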

Other observations

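Without lungs 5 and 6, the genes with the largest SDs within array experiments were, after Xist and Eif2s3y, Nppa, Erdr1, Xlr4a and Pisd-ps3, chosen here after their values were seen. Erdr1 was at 11.77, 12.96, 11.86, 8.27, 12.26 and 12.11 in lungs 1 to 6, so that lung 4 lay 3.50 log2 units under the next lung. Xlr4a, an X-linked lymphocyte-regulated gene, was at 9.60, 6.87, 10.05, 9.73, 10.88 and 9.32, lowest in lung 2 by 2.45 log2 units. Pisd-ps3, a pseudogene of a phosphatidylserine decarboxylase, was at 7.27, 9.70, 8.80, 8.44, 10.53 and 11.69, and the related Pisd-ps1 at 7.69, 9.75, 8.02, 7.92, 9.28 and 10.31, both lowest in lung 1 and highest in lung 6. Outside the glucocorticoid list, Fam107a (9.01 in lung 2, at most 7.42 in the others) was also highest in lung 2. Egr1 was lowest in lung 2, by 1.01 log2 units to the next lung.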
